A study of Mus musculus with 2 samples.

Results

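The histone genes were taken as all genes whose symbol begins with Hist1h to Hist4h, H2af or H3f3, together with H1f0 and H1fx. The rule found 89 of the 55536 genes in the deposited gene tables. Of these, 67 are protein-coding genes of the replication-dependent histone clusters (called cluster genes here), 13 are replacement histone genes and 9 are histone pseudogenes or an antisense transcript. The libraries are ribosome-reduced total RNA from left cerebral cortex tissue of 2 female adult B6CASTF1/J mice, the F1 cross of C57BL/6J and CAST/EiJ, aged 8 to 10 months and obtained from The Jackson Laboratory. Replicate 1 is animal 1 and replicate 2 is animal 5, each with 1 library made from 300 ng of RNA. The labels give no treatment and no second group, and they carry 1 donor entry for both samples. No test between conditions was therefore possible, values are given for both animals or as their mean, and ± is the SD of n = 2 unless it is called a counting error.

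Histones H2A, H2B, H3 and H4 form the protein core around which DNA is wound, and histone H1 binds the linker DNA between cores. The replication-dependent genes lie in clusters, have no introns for the most part, and are known for transcription in S phase and for mRNAs that end in a conserved stem-loop, bound by Slbp, in place of a poly(A) tail. Replacement histones, such as H3.3 and H2A.Z, are made throughout the cell cycle and in cells that no longer divide, mostly from spliced and polyadenylated mRNAs. Total RNA libraries are made without selecting poly(A) tails, so both kinds of mRNA can enter them.

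The 2 libraries held 28327434 and 30234441 expected gene counts, of which the histone genes took 0.0935% and 0.0905%. At an effective length of 300 nt, 3 counts corresponded to 0.551 and 0.53 TPM, the deposited unit of abundance corrected for length and depth, which is the upper limit that a count of 0 allows for a short histone gene, for counting error only. Markers of neurons, astrocytes, oligodendrocytes, microglia and endothelium were present in both libraries, with summed TPM that differed little between the animals (2083 and 2263 for the 4 neuronal markers). The 3 choroid plexus markers (Ttr, Kl and Folr1) summed to 176.9 TPM in replicate 1 and 57.89 TPM in replicate 2, mainly through Ttr at 171.7 and 55.72 TPM. The part of that difference in the histone values was not tested. Protamine and transition protein genes of testis germ cells (Prm1, Prm2, Tnp1 and Tnp2) were at 0 in both libraries. Fewer cells of a type and less RNA per cell cannot be told apart in these bulk samples.

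The annotated 3′ ends of the cluster genes were examined first, because the stem-loop is the feature that separates the mRNA of this class from other mRNAs. A 16-base stem-loop of the histone form, with a 6-base stem beginning GG and a 4-base loop, was found in 46 of 67 cluster genes, in 1 replacement gene, H2afx, and in none of the 9 noncoding members. Over all 141767 GENCODE M21 transcripts, members included, 0.147% held a match. By gene, 134 had a match, and 87 of these were not members, 63 of them protein-coding. The sequences below are from the GENCODE M21 transcripts (build mm10), 5′ to 3′, with the stem-loop in capitals and 5 bases on either side in lower case. They are shown because the stem letters divided along the histone types.
Hist2h2aa2: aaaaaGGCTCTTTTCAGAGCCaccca
Hist3h2ba: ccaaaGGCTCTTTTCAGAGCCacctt
Hist1h1c: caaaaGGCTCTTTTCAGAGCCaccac
Hist1h3a: ccaaaGGCTCTTTTCAGAGCCacaca
Hist1h3e: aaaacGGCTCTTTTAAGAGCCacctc
Hist1h4h: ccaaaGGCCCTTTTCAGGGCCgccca
Hist1h4i: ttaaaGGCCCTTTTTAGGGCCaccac
Hist1h4b: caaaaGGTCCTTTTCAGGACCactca
H2afx: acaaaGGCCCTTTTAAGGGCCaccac
The form of Hist2h2aa2, Hist3h2ba, Hist1h1c and Hist1h3a was the commonest, with 26 members drawn from H1, H2A, H2B and H3. Hist1h3e shared its stem but had a loop ending in A, as did 5 others. No H4 gene had that stem. The form of Hist1h4h was found in 7 H4 genes and in no other type, that of Hist1h4i in 2 H4 genes and that of Hist1h4b in 2 H4 genes. H2afx, the only gene outside the clusters with a match among the members, had the stem of most H4 genes with a loop ending in A. A match describes these letters only and shows nothing about the binding of a factor.

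Where the stem-loop lay in the annotated transcript differed among the cluster genes. In 22 of them the model ended within 60 nt of the stem-loop and these summed to 686 ± 59.7 TPM. In 24 the model ran on beyond that distance, and these summed to 422 ± 5.43 TPM. Another 15 had no annotated 3′ UTR and so could show no stem-loop (359 ± 28.3 TPM), and 6 had a 3′ UTR without a match (73.4 ± 4.77 TPM). Among these 6, the 3′ UTRs of Hist1h2af and Hist1h2ah were 1 and 2 nt long, too short to hold a stem-loop. The tail after the stem-loop was 46 nt in Hist1h4h, 169 nt in Hist3h2ba, 840 nt in Hist1h1c and 822 nt in H2afx. Since TPM divides by annotated length, a model that runs past the end of the molecules gives a lower TPM for the same count. With lengths taken only to the stem-loop, an alternative added after the data were seen, the cluster genes' share of histone TPM was 81.3% in place of 74.3%. The counts were not cut at the stem-loop, so reads from beyond it remained. This share is therefore too high wherever the molecules do run on.

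Cluster genes made up most histone mRNA per unit of length. They summed to 1602 TPM in replicate 1 and 1479 TPM in replicate 2, and the replacement genes to 532 and 534 TPM. The cluster share was thus 75.1% and 73.5%, or 74.3 ± 1.12%. By expected counts, which are not divided by length, the share was 57.0 ± 1.09%. Most of the excess came from H4. Like H2B, which summed to 274 and 275 TPM, H4 has no replacement gene under the rule. Both types therefore fell wholly to the cluster genes. The 13 H4 genes alone summed to 879 and 725 TPM, or 52.0 ± 4.14% of the cluster total, and without them the cluster share was 58.1 ± 0.681%. By expected counts the share without H4 was 42.7 ± 0.907%, so on that scale the replacement genes were the larger part. In 54 of the 67 cluster genes (80.6%) the level reached 1 TPM in both libraries, and 10 of the 13 replacement genes did so, beside 58.9% of 22028 protein-coding genes and 26.8% of all genes. A further 6 cluster genes reached 1 TPM in 1 library only (Hist1h2ah, Hist1h2ao, Hist2h2aa1, Hist1h2ac, Hist1h2bn and Hist1h3c). The remaining 7 (Hist1h1t, Hist1h2aa, Hist1h2ba, Hist1h2ad, Hist1h2an, Hist1h2bh and Hist2h3c1) reached it in neither. Hist2h3c1 had no count, and its coding sequence is identical to that of Hist2h3c2, which had 3.23 and 2.13 TPM.

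**Figure D1:**
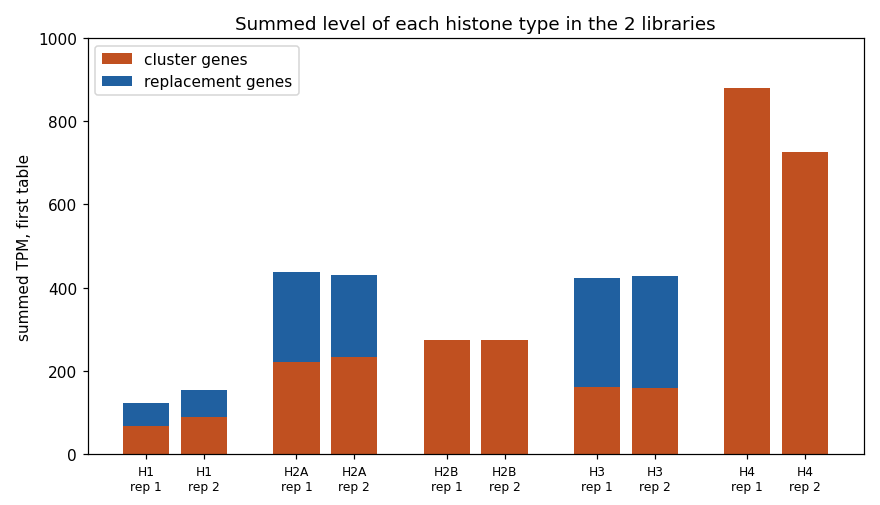
Summed TPM of each histone type in each library, with cluster genes and replacement genes stacked; rep 1 and rep 2 are the 2 animals and there are no error bars. H4 reached 879 and 725 TPM and, like H2B, has no replacement gene among the members, whereas replacement genes were the larger part of H3.

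The balance of the classes differed by histone type. For H3 the replacement genes were the larger part, at 262 and 269 TPM against 160 and 158 TPM for the cluster genes, so that cluster genes held 37.5 ± 0.619% of H3. For H2A the classes were close to even, with 52.3 ± 2.23% in cluster genes (222 and 232 TPM against 215 and 199 TPM). For H1 the cluster share was 56.4 ± 1.49%, from 67.3 and 88.6 TPM against 54.3 and 65.7 TPM. H2B, which has no replacement member under the rule, summed to 274 and 275 TPM. In the second quantification table, described with the near-identical copies, the H3 share was 37.7 ± 0.468% and the H2A share 60.6 ± 2.7%. By TPM, cluster genes held the smaller part of H3 only, in both tables. By expected counts they also held the smaller part of H2A, 36.0% in the first table and 34.1% in the second.

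By locus, the 54 genes of the Hist1 cluster (mm10 chromosome 13, 21715763 to 23934851) summed to 1199 ± 121 TPM. The 10 genes of the Hist2 cluster (chromosome 3, 96219865 to 96270132) summed to 258 ± 21.9 TPM. The pair in the Hist3 cluster, Hist3h2a and Hist3h2ba (chromosome 11, 58948920 to 58956830), gave 78.2 ± 10.7 TPM, and the single Hist4 gene, Hist4h4 (chromosome 6, 136801553 to 136804415), gave 5.62 ± 0.672 TPM.

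Among the H4 genes, all of which encode the same protein, the level ranged from 5.62 to 179 TPM. Hist1h4h (ENSMUSG00000060981, chromosome 13, 23531050 to 23531519, plus strand) had 208 TPM in the first animal and 149 TPM in the second. It was the highest histone gene, at rank 403 by mean TPM among protein-coding genes. Hist1h4k followed with 160 and 139 TPM, a range that overlapped that of Hist1h4h, and Hist1h4m with 122 TPM in both libraries. Hist1h4f had 92.9 and 82.8 TPM, and Hist1h4d had 65.9 and 59.8 TPM. The order of the first 3 was the same in the second table, at 291, 213 and 163 TPM. Hist1h4c (56.0 and 45.6 TPM), Hist1h4i (38.0 and 29.3 TPM), Hist1h4b (34.1 and 31.5 TPM) and Hist1h4n (43.3 and 15.6 TPM) were lower. The ranges of Hist1h4i, Hist1h4b and Hist1h4n over the animals overlapped, so their order was not resolved. All 13 H4 genes reached 1 TPM in both libraries in the first table, and 12 did in the second. Hist4h4, which lies alone on chromosome 6, was the lowest in the first table at 5.15 and 6.1 TPM. In the second, Hist1h4n at 0 and Hist1h4j at 3.52 TPM were below its mean of 4.32 TPM.

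Of the H2B genes, Hist2h2bb led with 83.7 and 84.9 TPM. Hist3h2ba followed with 42.7 and 60.2 TPM and Hist1h2bg with 30.3 and 34.3 TPM. Of the H2A cluster genes, Hist2h2aa2 had 94.9 and 109 TPM, Hist3h2a 27.9 and 25.6 TPM and Hist2h2ac 14.0 and 16.2 TPM. Of these 6 genes 5 lie outside Hist1. The H2A order depended on the table: in the second, Hist1h2ai was next to Hist2h2aa2, at 70.3 and 75.8 TPM, and Hist3h2a had 19.4 TPM. The 5 highest of the 12 H3 cluster genes lay close together. Hist1h3i had 39.5 and 21.03 TPM, Hist1h3h 24.96 and 28.7 TPM, Hist2h3b 20.8 and 32.5 TPM, Hist1h3a 26.0 and 26.1 TPM and Hist1h3e 24.4 and 26.5 TPM. The values of these 5 overlapped between the animals, so their order was not resolved. The other 7 had means from 0 to 9.53 TPM, and one of them, Hist1h3b, was the highest in the second table at 31.8 TPM. Of the linker histone genes of the cluster, Hist1h1c had 26.55 and 38.0 TPM, Hist1h1e 21 and 29.8 TPM and Hist1h1a 11.35 and 14.5 TPM.

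The 3 cluster genes known for expression in testis germ cells were at or next to 0. Hist1h2aa and Hist1h2ba had no count in either library, and Hist1h1t had 1 count, 0.07 TPM, in replicate 1 and none in replicate 2.

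**Figure D2:**
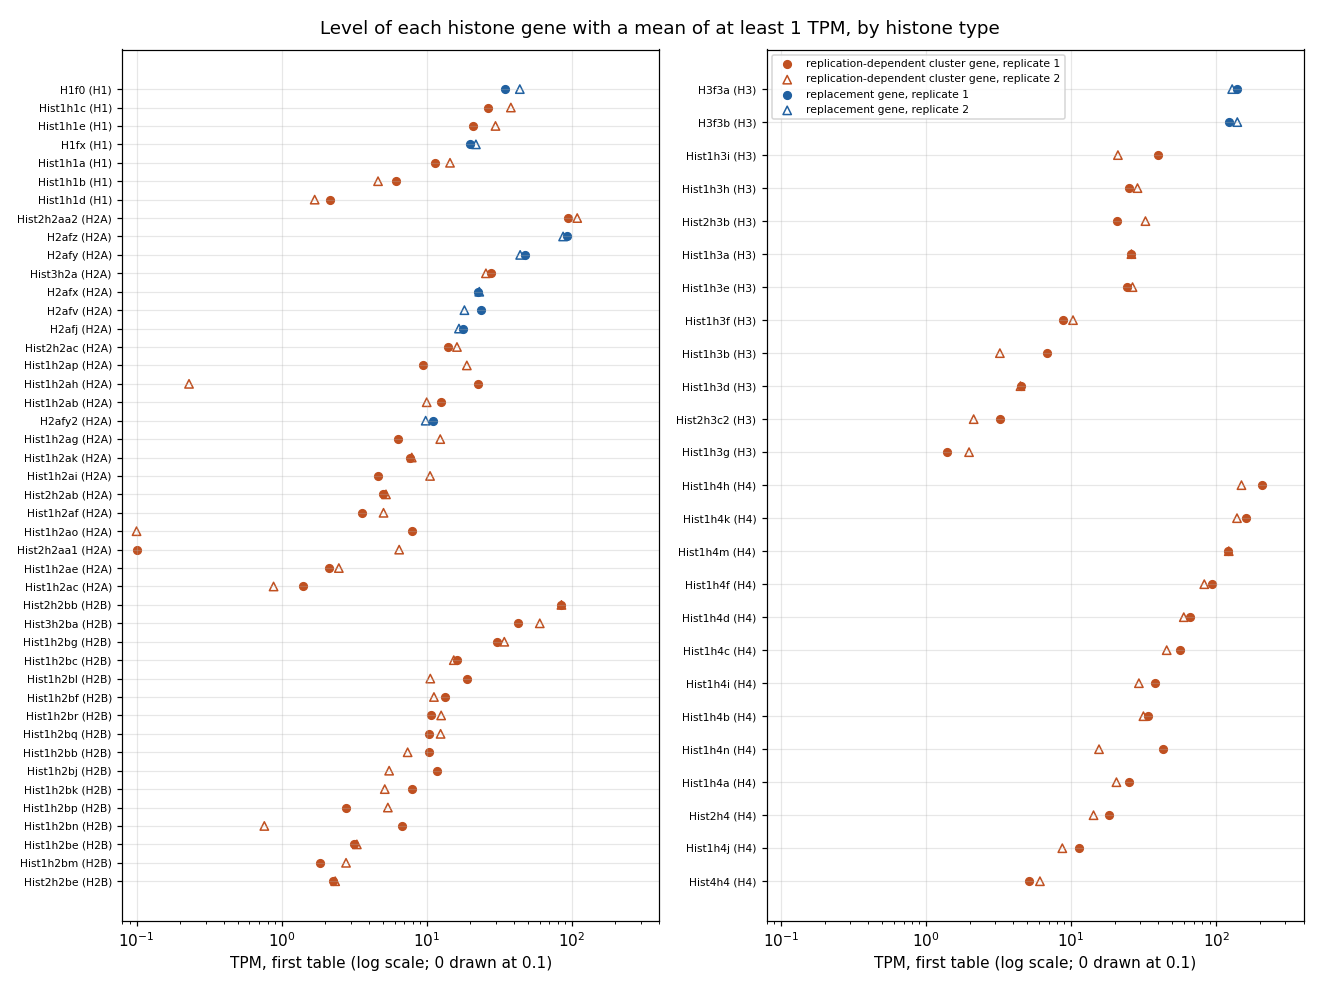
TPM in the first table (log axis, 0 drawn at 0.1) of each protein-coding histone gene with a mean of at least 1 TPM, grouped by type and ordered by mean; filled circles are replicate 1, open triangles replicate 2, orange cluster genes and blue replacement genes. The H4 genes span 5.62 to 179 TPM in mean, H3f3a and H3f3b stand above all H3 cluster genes, and Hist1h2ah, Hist1h2ao and Hist2h2aa1 are at or near 0 in 1 library only.

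The replacement genes of H3 were the most abundant of their class. H3f3a (ENSMUSG00000060743, chromosome 1, 180800832 to 180813943, minus strand) had 139 and 129 TPM, and H3f3b (ENSMUSG00000016559, chromosome 11, 116021912 to 116027962, minus strand) had 123 and 140 TPM. Both encode H3.3, which is known to be placed in chromatin outside replication by the Hira and Atrx-Daxx chaperones. The values of the 2 genes overlapped between the animals, so neither was the higher beyond the spread. Their coding sequences gave an identical protein of 136 residues although 95 of 408 coding bases differed. H3f3b differed by 4 residues from the protein of Hist2h3b and by 5 from that of Hist1h3i, and these last 2 differed from each other by 1. By protein, H3f3a and H3f3b together gave 266 ± 4.57 TPM. The 8 cluster genes that share the protein of Hist2h3b gave 74.6 ± 8.49 TPM, and the 4 that share that of Hist1h3i (Hist1h3a, Hist1h3g, Hist1h3h and Hist1h3i) gave 84.8 ± 9.96 TPM. In the second table these 3 sums were 239, 90.3 and 54.6 TPM, so the order of the 2 cluster forms depended on the table while H3.3 was the highest in both.

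Of the H2A replacement genes, H2afz (ENSMUSG00000037894, chromosome 3, 137864487 to 137866922, plus strand), which encodes H2A.Z, had 93.1 and 87.1 TPM. H2afv, which encodes a second H2A.Z that differed from it by 3 of 128 residues, had 23.8 and 18.2 TPM. H2afy and H2afy2 encode the macroH2A proteins, which carry a large extra domain, and had 47.3 and 44.1 TPM and 11.1 and 9.84 TPM. H2afx, whose protein is phosphorylated at DNA breaks, had 22.4 and 23.0 TPM. H2afj had 17.9 and 16.7 TPM. The order H2afz, H2afy, then H2afx with H2afv and H2afj, then H2afy2 held in both animals except that H2afx and H2afv changed places. The H2A.B genes H2afb1, H2afb2 and H2afb3, known from testis, had no count in either library. Of the linker histones, H1f0, known for accumulation in cells that have stopped dividing, had 34.4 and 43.8 TPM, and H1fx had 19.9 and 21.8 TPM. H1f0 was thus above Hist1h1c and Hist1h1e, the highest H1 cluster genes, in each animal.

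The transcript tables divided these genes among annotated transcripts with unequal agreement. H2afz was nearly all H2afz-201, at 93.8% and 93.3% of the gene's TPM. H2afy, which is known to be spliced into forms with different macro domains, gave 34.1% and 28.7% to H2afy-201 (372 codons) and 19.9% and 24.9% to H2afy-202 (369 codons). The longer coding form was therefore the higher in both animals, by a margin that was smaller in replicate 2. In the second table H2afy-201 had 29.8% and 24.7% and H2afy-202 16.4% and 26.3%, so there the order changed between the animals. Transcripts of H2afy annotated without a coding sequence took a large part, with H2afy-204 alone at 24.2 ± 1.44%. H3f3a was divided between H3f3a-207 (46.6 ± 4.37%) and H3f3a-201 (42.0 ± 6.1%). H2afv gave 56.8 ± 1.13% to H2afv-202, with 128 codons, and 43.2 ± 1.13% to H2afv-201, with 90 codons.

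H3f3b was divided differently by the 2 tables. In the first, the noncoding model H3f3b-204 had 52.3 ± 2.18%, the coding H3f3b-201 had 39.0 ± 1.63% and the coding H3f3b-202 had 0.18 ± 0.0566%. In the second, H3f3b-202 had 41.5 ± 4.51% and H3f3b-201 had 6.5 ± 3.72%. The 2 coding models encode the same 136 codons and differ in length, 1993 and 2514 nt. Within a table the animals differed by far less than the tables did, and no preference between the 2 models can be read from these values. H2afj-201 likewise moved from 53.7 ± 1.32% to 85.9 ± 11.6%.

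**Figure D3:**
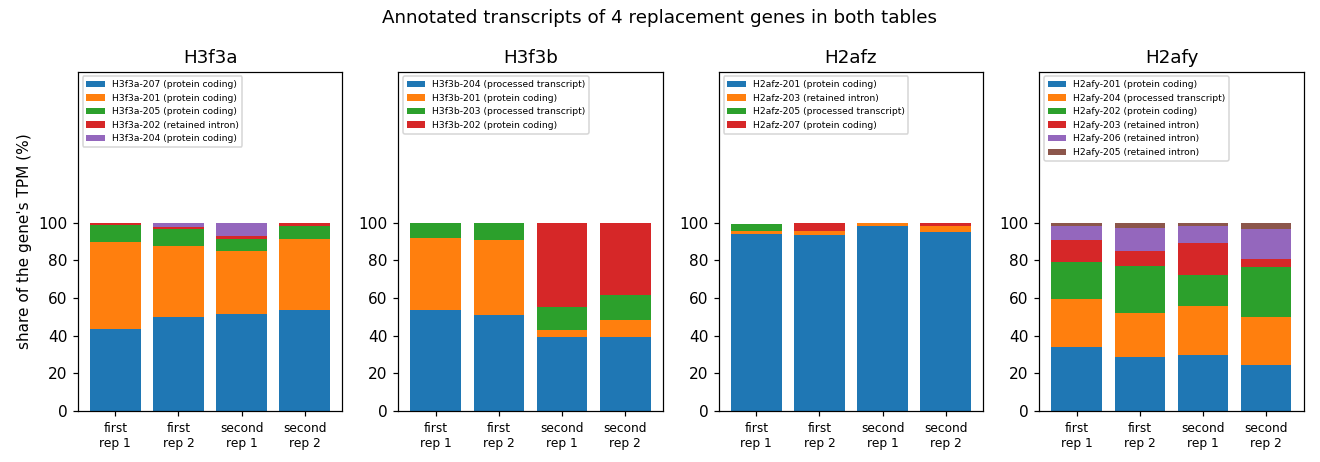
Share of each gene's TPM (stacked bars, percent) in the annotated transcripts of H3f3a, H3f3b, H2afz and H2afy, for both animals in the first and second tables; transcripts under 1% in both tables are left out. H2afz-201 holds 93.3% or more in every bar, and the 2 coding models of H3f3b change places between the tables.

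Near-identical copies limit what can be said of single cluster genes. The median cluster gene shared 49.7% of its 50-base words with another gene, against 6.68% for the replacement genes. The 13 H4 genes encode 1 protein with 12 distinct coding sequences, and Hist1h4m and Hist1h4n have the same one. The 18 H2A cluster genes encode 9 proteins, the 18 H2B genes 11, the 12 H3 genes 2 and the 6 H1 genes 6. The deposit holds a second transcript table for each library, in another column layout, and its gene sums were set beside the first. Of 61 cluster genes with at least 1 TPM in either table, 6 differed more than 3-fold in mean TPM, against 1.46% of 13515 protein-coding genes, 8.72% of all genes and 0 of 10 replacement genes. All 6 were among the 31 cluster genes that shared over 50% of their 50-base words, and none was among the other 30.

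The 6 genes were 3 in each direction. Hist1h2ai had 7.59 TPM in the first table and 70.3 in the second, Hist2h2aa1 had 3.23 and 39.3, and Hist1h3b had 5.04 and 31.8. Hist1h4n had 29.4 TPM in the first table and 0 in the second, Hist1h2ao 3.95 and 0, and Hist1h2ag 9.38 and 2.63. Summing copies with the same coding sequence removed most of the difference for 2 pairs. Hist1h4m and Hist1h4n together had 151 TPM in the first table and 163 in the second, and Hist2h2aa1 and Hist2h2aa2 together had 105 and 115 TPM. For the pair Hist1h2ao and Hist1h2ap the sum was still 18.2 TPM in the first table and 7.70 in the second, and for the 9 H2A genes that encode 1 protein it was 51.2 TPM in the first table and 92.5 in the second. The sum of all H4 genes was 802 and 847 TPM. Single values of these copies are therefore given as the tables report them and carry an uncertainty larger than their counting error. The pseudogene Hist1h2al, with 21.7 TPM in the first table and 0.291 in the second, was in the same position.

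**Figure D4:**
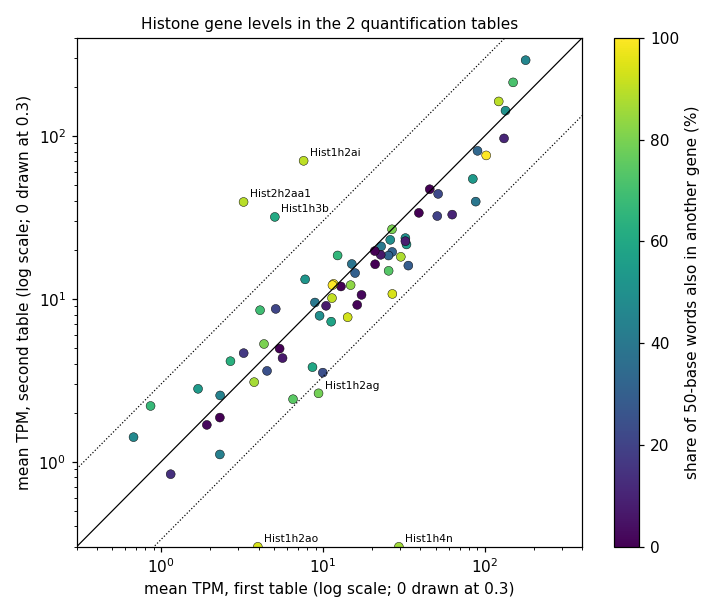
Mean TPM of each protein-coding histone gene in the first (x) and second (y) table, both on log axes with 0 drawn at 0.3; colour is the share of its 50-base words found in another gene, the solid line is equality and the dotted lines 3-fold. The 6 labelled genes lie outside the dotted lines and all share over 50% of their words.

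The animals were then compared gene by gene as log2 differences of counts scaled by trimmed mean of M values (TMM), replicate 2 minus replicate 1, for members whose counts averaged 50 or more over the libraries. With 1 library for each animal these differences have no replicate check, and the error given is the counting error alone. Of the 67 cluster genes, 45 were measured, and of the 13 replacement genes 10. Among the cluster genes 3 were past 2-fold, all lower in replicate 2, and none of the replacement genes was; over 14122 genes 1.25% were past 2-fold, 0.623% higher and 0.63% lower. Each of the 3 shared over 50% of its 50-base words. The level of Hist1h2ah was 22.5 TPM in replicate 1 and 0.23 in replicate 2, from 125 and 1 rounded counts, a ratio of 138 with an exact 95% counting interval of 24.2 to 5470. Hist1h2ah and Hist1h2bj (77.2 and 37.7 counts) met the count minimum through replicate 1, where they were high, so these calls follow in part from the filter. The difference of Hist1h2ah in the second table had the opposite sign, 2.40 on the log2 scale. Hist1h4n differed by -1.54 ± 0.172 and Hist1h2bj by -1.13 ± 0.287. The sum of Hist1h4n with its identical copy Hist1h4m differed by only -0.36.

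The next largest differences were Hist1h3i at -0.99 ± 0.162 and Hist1h2bl at -0.92 ± 0.242. On the other side were Hist1h2ap at 0.90 ± 0.217, Hist1h2ag at 0.88 ± 0.264 and Hist2h3b at 0.56 ± 0.151. The antisense transcript H3f3aos was at 0.95 ± 0.304 and the pseudogene Hist3h2bb-ps at 0.54 ± 0.281. Hist1h2ag (44.5 and 90.0 counts), H3f3aos (33 and 71) and Hist3h2bb-ps (42.6 and 68.6) met the count minimum through replicate 2. They were high there, so their differences follow in part from the filter. For Hist1h2ap the second table gave -0.60. Its sum with Hist1h2ao, which has the same coding sequence, differed by 0.04. The median over the measured cluster genes was -0.155 and over the replacement genes -0.152, against -0.022 over all genes measured. The credibility bounds that the authors deposited for TPM, at a level the headers do not state, did not overlap between the animals for 10 of the 45 cluster genes and 2 of the 10 replacement genes, H3f3b and H1f0, beside 19.8% of all genes, so neither share stood far from the background.

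By type, the sums of the H4 genes and of the H1 cluster genes lay on opposite sides, though single H1 genes went both ways. Of the 13 H4 genes 12 were lower in replicate 2, against 54.4% of all genes, with a median of -0.377. Hist1h4h differed by -0.56 ± 0.059. Hist2h4, of whose 50-base words only 1.01% were shared, differed by -0.43 ± 0.096, and Hist1h4c by -0.38 ± 0.079. Hist4h4 alone was higher, by 0.16 ± 0.121. The summed H4 counts, 7119 and 6170, differed by -0.34 after TMM scaling. The summed H1 cluster counts, 1889 and 2539, differed by 0.29, with 3 of 5 measured genes higher. Hist1h1c differed by 0.44 ± 0.07, Hist1h1e by 0.42 ± 0.071, Hist1h1a by 0.27 ± 0.166, Hist1h1b by -0.49 ± 0.257 and Hist1h1d by -0.42 ± 0.128. The replacement linker gene H1f0 differed by 0.27 ± 0.055 and Hist3h2ba by 0.41 ± 0.094. For H2A, H2B and H3 the medians were -0.043, -0.056 and 0.042.

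These directions depended in part on the scaling. The ERCC spike-ins, synthetic RNAs added to each sample, placed replicate 2 higher, so that the median of all genes was 0.253 in place of -0.022. On that scale 8 of 13 H4 genes were lower in replicate 2, the H4 sum differed by -0.07, and 9 of 10 replacement genes were higher in place of 3. A median of 0.253 means that most of all genes were higher there. Their share was not counted, so these counts have no background on that scale. A change of scaling shifts all genes by nearly the same amount, so it cannot alter the H4 median relative to that of all genes. That value was -0.354 with TMM and -0.355 with the spike-ins, and their closeness is no separate check. The summed H1 cluster difference was 0.57 with the spike-ins. Of the 11 H4 genes measured in the second table, 9 were lower, and the median was -0.434, against -0.02 over all genes there. The 13 H4 genes share reads and are not independent of one another.

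**Figure D5:**
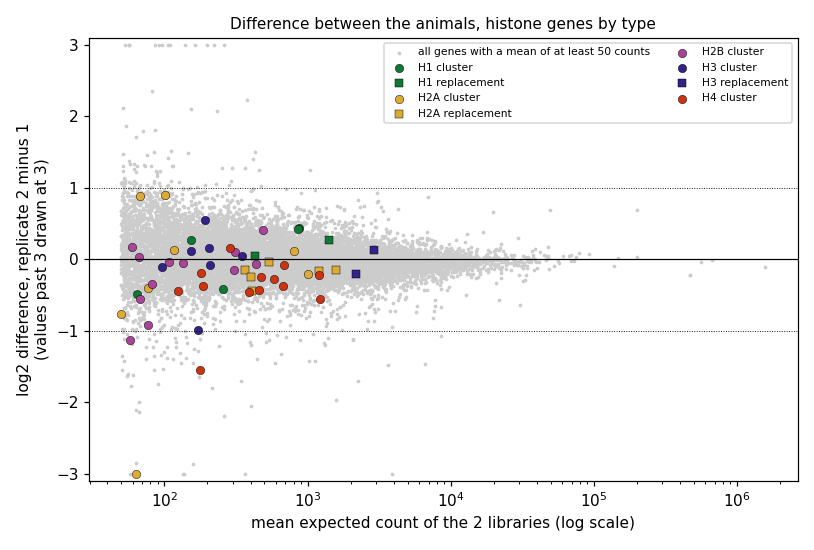
Log2 difference between the animals (replicate 2 minus 1, TMM scaling, values past 3 drawn at 3) against the mean expected count (log axis), for all genes averaging 50 counts or more in grey and histone genes coloured by type, circles for cluster genes and squares for replacement genes; dotted lines mark 2-fold. The H4 genes lie below 0 except Hist4h4, and the cluster genes past 2-fold are Hist1h2ah, Hist1h4n and Hist1h2bj.

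Promoter windows of 250 bases before to 50 after the start site, from RefSeq (GRCm38.p6, the assembly of mm10), were matched to 61 cluster genes, 12 replacement genes and the pseudogene H3f3c. They are described because the cluster genes are known to be transcribed together in dividing cells. Searches on both strands used the letters CCAAT (those of the CCAAT box), the letters TATAAA (those of the TATA box) and the octamer ATTTGCAT. None of these motifs contains another. CCAAT was in 52 of 61 cluster windows (85.2%), against 37.4% of all 32851 windows. The exceptions were all H4: every H1, H2A, H2B and H3 window had CCAAT, and 3 of 12 H4 windows did. TATAAA was in 57.4% of the cluster windows and 13.6% of all. It was counted at any position in the window and on either strand, so a match need not be a TATA box. The octamer was in 7 of 17 H2A and 6 of 16 H2B windows, in no H1, H3 or H4 cluster window, and in 1.74% of all windows. The windows of 9 H2A and H2B pairs overlap, so the same letters can be counted for both genes of a pair. The octamers of Hist1h2ae and Hist1h2bg, for example, are the same bases. The counts of windows with each motif are therefore not counts of separate sites. Of the replacement genes, 9 of 12 had CCAAT and 1, H3f3b, had TATAAA and the octamer. The windows of an H2B gene with the 3 motifs, of the highest H4 gene with none, and of H3f3b are shown, with matches on either strand in capitals.
Hist1h2bg (chr13:23571150-23571449, plus strand): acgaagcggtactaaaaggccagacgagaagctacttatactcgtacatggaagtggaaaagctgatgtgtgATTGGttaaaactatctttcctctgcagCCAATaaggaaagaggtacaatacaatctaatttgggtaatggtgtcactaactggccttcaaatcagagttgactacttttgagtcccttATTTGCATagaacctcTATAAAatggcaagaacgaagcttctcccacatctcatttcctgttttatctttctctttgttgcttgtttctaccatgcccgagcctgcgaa
Hist1h4h (chr13:23530794-23531093, plus strand): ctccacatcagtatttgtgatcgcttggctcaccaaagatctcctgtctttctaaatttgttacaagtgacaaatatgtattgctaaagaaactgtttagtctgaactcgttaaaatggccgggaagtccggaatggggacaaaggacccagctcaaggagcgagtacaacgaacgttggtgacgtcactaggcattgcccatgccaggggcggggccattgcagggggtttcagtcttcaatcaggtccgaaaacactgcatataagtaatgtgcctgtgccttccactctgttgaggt
H3f3b (chr11:116024455-116024754, minus strand): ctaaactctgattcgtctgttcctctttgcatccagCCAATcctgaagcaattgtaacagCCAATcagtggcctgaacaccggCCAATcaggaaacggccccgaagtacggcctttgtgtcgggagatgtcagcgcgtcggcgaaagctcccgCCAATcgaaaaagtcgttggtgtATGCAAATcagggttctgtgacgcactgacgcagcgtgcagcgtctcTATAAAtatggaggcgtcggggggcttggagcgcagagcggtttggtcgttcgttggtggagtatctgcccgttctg
In the Hist1h2bg window the octamer begins 59 bases and TATAAA 43 bases before the start site. In H3f3b they begin 74 and 27 bases before it, with the octamer on the other strand. The letters alone do not show a site or its use, and a window without a match lacks only these letters.

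In 9 pairs of 1 H2A and 1 H2B gene the windows overlapped on opposite strands, by 220 to 279 bases, so that both genes start from the same stretch of DNA. The levels within a pair were often unequal. Hist1h2bg had 32.3 TPM and its partner Hist1h2ae, which shares 279 bases, 2.31 TPM, and the second table gave 23.6 and 1.11 TPM. Hist1h2bf had 12.3 TPM and Hist1h2ad 0.86 TPM. Hist1h2bl and Hist1h2ai had 14.8 and 7.59 TPM in the first table and 12.1 and 70.3 TPM in the second, so the order within that pair changed with the table. The testis pair Hist1h2ba and Hist1h2aa was at 0 on both sides.

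Genes that act on histone mRNA or histone proteins were read from lists of companions. Of 8 genes of histone mRNA transcription and processing, 7 reached 1 TPM in both libraries, with a median of 7.12 TPM over the list. Slbp, which binds the stem-loop, had 9.79 and 12.2 TPM, Npat, which activates histone gene transcription, 8.72 and 9.54 TPM, and Lsm10, of the U7 particle that cuts histone pre-mRNA, 7.85 and 7.49 TPM. Of 25 histone chaperones and exchange factors, 22 reached 1 TPM in both, with a median of 30.3 TPM. The highest were Nap1l5 with 172 and 162 TPM, Nap1l1 with 96.8 and 100.3 TPM and Set with 96.7 and 99.3 TPM. None of the 7 and 23 genes of these lists that met the count minimum was past 2-fold between the animals. Chaf1b, below it with 8 and 26 counts, had 0.35 and 1.71 TPM.

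Of 20 proliferation genes, 9 reached 1 TPM in both libraries, and the median was 1.21 TPM. Pcna, the sliding clamp of DNA polymerase, was the highest with 24.8 and 24.3 TPM, followed by Mcm7 with 7.33 and 7.19 TPM and Ccne1 with 6.73 and 7.03 TPM. Mcm2, of the replicative helicase, was the only one past 2-fold among the 10 measured, with 1.28 and 4.26 TPM and a log2 difference of 1.08. Mki67, a marker of dividing cells, had 0.86 and 0.75 TPM. Of the other histones outside the rule, Cenpa, the centromeric H3, had 1.91 and 2.33 TPM, and H1foo, H1fnt and Hils1 had no count.

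Of 8 cluster genes known to give polyadenylated transcripts in differentiated cells, 7 were annotated and all 7 reached 1 TPM. They summed to 157 and 174 TPM, a minor part of the cluster total. By expected counts their part was larger, 3116 of 15166 in replicate 1 and 3522 of 15247 in replicate 2. The highest were Hist3h2ba, Hist1h4i and Hist1h1c, with means of 51.5, 33.7 and 32.3 TPM. Of the 9 noncoding members, 2 reached 1 TPM in both libraries, Hist1h2al with 19.9 and 23.5 TPM and Hist3h2bb-ps with 6.44 and 9.97 TPM. H3f3c had 13.1 and 0.57 TPM in the first table and 10.4 and 12.4 TPM in the second, where the gap between the animals was absent. Annotated genes overlapped 24 of the 67 cluster genes, 21 of them with an overlap on the opposite strand, and 8 of the 13 replacement genes. The labels and headers do not say whether reads were counted by strand, so for these genes the share of reads from the partner cannot be told apart. Hist1h1e and Hist1h2be overlap on the same strand.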

How the data were processed

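Total RNA was sequenced from 2 mice (1 group, no contrast). The deposited gene and transcript tables hold expected counts, TPM, the share of gene TPM that a transcript takes (percent), and credibility bounds of TPM (treated as scores), per the file headers. A second deposited transcript table holds estimated counts and TPM by another method and was summed to genes. Per the labels the build is mm10, with GENCODE M21 annotation per the deposited notes; no source used here names the aligner or says whether strand was used. The first table's effective length is the length less 100 nt.

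Levels are mean ± SD of the 2 libraries. Differences are log2 CPM with TMM factors (edgeR 4.0.16, R 4.3.3), expected counts rounded, prior count 1, minimum mean of 50 counts; no test was run. The calculation was tested on simulated data. DESeq2 1.42.0 size factors, totals and spike-ins were alternatives. Sequence words, stem-loops and motifs were read with Python 3.11.15 from GENCODE and RefSeq tables, matching promoters by symbol or synonym. Named genes were all replacement genes, the highest cluster genes by type and locus, the 5 largest differences each way, genes over 3-fold apart between tables, and testis genes. Members and lists were chosen with earlier results of these data known. Reads of the CAST/EiJ alleles were assigned with the mm10 reference, which is from C57BL/6J, and the effect was not tested. Whether the 2 samples share a donor is unclear from the labels.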

Additional observations from a re-analysis of the deposited data

How the results depend on the processing

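The cluster share of histone TPM, 74.3%, was 57.0% by expected counts, 76.6% in the second table and 71.5% with counts per annotated length. It was 81.3% with lengths, but not counts, cut at the stem-loop and 58.1% without H4 genes. In single animals it was 73.5% to 75.1%. The share was over 50% in each of these, but by expected counts without H4 it was 42.7%. By the estimated counts of the second table the cluster share was 50.97%, close to even, and 38.55% without H4. All of these shares keep H2B, which has no replacement gene under the rule. The number of cluster genes past 2-fold, 3, was 1 in the second table. With a minimum of 10 counts it was 8, with 200 it was 0 and with none 10. The share over all genes, 1.25%, was taken in the first table at a minimum of 50 counts only. These other counts therefore have no background beside them. Under spike-in scaling the median log2 difference reversed to 0.12 for cluster and 0.124 for replacement genes; with no minimum the replacement median was -0.041. The second table moved the type sums to 112.8 TPM for H1 (from 138), 462.9 for H2A (from 434), 228.5 for H2B (from 274) and 384.1 for H3 (from 425). It moved transcript shares to 27.2% for H2afy-201, 6.5% for H3f3b-201, 41.5% for H3f3b-202, 39.2% for H3f3b-204, 96.7% for H2afz-201, 69.7% for H2afv-202, 52.7% for H3f3a-207, 35.5% for H3f3a-201 and 85.9% for H2afj-201. The cause was not tested. Of 74 gene levels, 26 lay within 1 SD of the 2 animals in the second table, 25 were higher and 49 lower there. The numbers of cluster and replacement genes detected, 54 and 10, stayed within 1.5 times at each threshold from 0.1 to 5 TPM, in the second table and in single animals. Leaving out an animal gives no value for differences between animals. No paired analysis was possible because there is 1 group and no contrast. Depth limits genes of few counts: 3 counts at 300 nt are 0.551 TPM in replicate 1.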
